A study of Mus musculus with 14 samples.

Results

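Of a list of 38 mouse genes that act in mitosis and on the spindle, 33 were represented on an expression array that had been run on 14 samples of cerebellar cells from patched heterozygous mice. A gene was a member if the array's annotation gave its symbol to a probe set, and each gene was represented by 1 probe set, the one with the highest mean over all arrays. The 33 are among 8251 genes with a probe set of a single symbol. Ccnb1, Cdc25b, Bub1b, Hmmr and Cenpf had no such probe set and are not analysed here. The samples fell into 3 groups: granule cell precursors (GCP, n = 4) from mice aged 7 days, preneoplastic cells (pretumor, n = 5) from mice aged 6 weeks, and tumor cells (tumor, n = 5) from mice aged 10 to 25 weeks with outward signs of medulloblastoma. All groups were patched+/-, so no group is a wild-type control. Per the labels, the patched line was bred with 129X1/SvJ mice. The labels also describe a Math1-GFP/patched+/- cross and do not say which of the samples, if any, came from it. Cells were taken from a Percoll step gradient after digestion of the cerebellum with papain, were frozen without culture and were not sorted, so other cell types of the cerebellum could be present. Stage and age change together and cannot be told apart. Nothing in the labels ties a sample to an animal of its own, so the tests below rest on a spread between arrays that may be technical only.

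Mitosis is set off when B-type and A-type cyclins switch on Cdk1. Aurora and Polo kinases and the kinesin motors then build the spindle, the condensin complex compacts the chromosomes, and the checkpoint built from Bub, Mad2 and Mps1 proteins holds back the anaphase-promoting complex until every chromosome is attached. Granule cell precursors divide in the outer layer of the young cerebellum under hedgehog signalling, which patched restrains, and medulloblastoma of patched mice is thought to arise from this lineage. Most genes of the set are transcribed in G2 and M phase and are silent in resting cells, so in a mixed sample their RNA level depends on how many cells are dividing. Fewer dividing cells and less RNA per dividing cell cannot be told apart in these samples.

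The promoters of 3 members are shown because the levels of these genes differed between stages and because the set as a whole is known for 2 short elements: the CCAAT box, bound by the factor NF-Y, and the CHR element of late cell cycle genes. The CHR was searched as TTTGAA and as TTCGAA. The level of a further member, Cdc25c, also differed between stages, but its promoter is not shown. No match to these elements was recorded for Cdc25c, and whether its promoter was among those searched is not stated here. Each line holds the 250 bases before the transcription start from RefSeq on GRCm38.p6, 5′ to 3′ on the gene's strand, with matches to these elements on either strand in capitals. The windows are chr9:70421555-70421804 on the minus strand for Ccnb2, chr10:69352913-69353162 on the minus strand for Cdk1 and chr4:52438971-52439220 on the plus strand for Smc2.
Ccnb2: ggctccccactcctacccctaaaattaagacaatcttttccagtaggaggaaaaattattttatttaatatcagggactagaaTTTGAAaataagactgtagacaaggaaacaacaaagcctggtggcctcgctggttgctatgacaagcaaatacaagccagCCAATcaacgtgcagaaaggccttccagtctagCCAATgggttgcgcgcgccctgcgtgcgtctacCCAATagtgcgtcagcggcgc
Cdk1: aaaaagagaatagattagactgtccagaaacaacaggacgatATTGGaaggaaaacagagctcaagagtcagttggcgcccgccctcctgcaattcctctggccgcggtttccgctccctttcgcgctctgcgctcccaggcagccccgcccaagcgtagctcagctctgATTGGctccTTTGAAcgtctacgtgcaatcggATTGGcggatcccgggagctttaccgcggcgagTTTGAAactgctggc
Smc2: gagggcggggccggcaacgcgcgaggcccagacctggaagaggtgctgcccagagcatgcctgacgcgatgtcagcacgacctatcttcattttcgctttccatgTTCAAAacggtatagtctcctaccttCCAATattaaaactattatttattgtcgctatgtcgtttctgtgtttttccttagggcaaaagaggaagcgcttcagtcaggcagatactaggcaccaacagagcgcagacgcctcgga
Ccnb2 had 3 forward CCAAT matches, beginning at -87, -54 and -21 relative to the start, and Cdk1 had 3 in the reverse orientation, at -208, -80 and -48. Cdk1 had TTTGAA at -71 and -15. Ccnb2 had it at -167 and again at 5, past the end of the printed stretch. Smc2 had 1 CCAAT at -119 and TTTGAA in reverse at -145 and 27.

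Windows of 300 bases, 250 before the start and 50 from it on, were found for 30 of the 38 listed genes, 25 of them on the array, and made 32 windows in all. CCAAT was present on either strand in 28 of these windows (87.5%) against 37.4% of 32851 windows of all genes. TTTGAA was present in 23 (71.9%) against 17.9%, and TTCGAA, which reads the same on both strands, in 4 (12.5%) against 1.56%. CCAAT together with TTTGAA or TTCGAA was found in 24 of the 32 windows (75%) against 7.52% of all. TTTGAA and a reverse CCAAT can share a base at their ends. Top2a had 6 CCAAT matches, Mki67 and Ube2c 3 and 6, and Kif2c had TTTGAA without CCAAT. These are matches of letters, and binding was not measured.

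Levels are log2 intensities, each group given as mean ± SD, and a difference was called when limma's adjusted p, over all 12422 probe sets tested, lay under 0.05. Values under 16 on the linear scale, 4 on the log2 scale, lie in a crowded low band that holds 70.5% of all values. Of the 33 members 28 had a mean over all arrays at or above that limit. The other 5 were Foxm1, Ube2c, Aurkb, Incenp and Cenpe, and their levels carry little information. Foxm1, at a mean of 3.93, was just outside the limit and Plk1, at 4.39, just inside it. The array medians lay within 0.094 log2 units of each other, and precision is limited by how many arrays each group has. The GCP arrays split in pairs: the Gapdh ratio of 3′ to 5′ signal was 0.46 log2 units in GCP 1, 0.56 in GCP 2 and -0.018 in each of the other GCP arrays. Among pretumor arrays it was 0.79, 1.08 and 0.85 in pretumor 1, 2 and 4 against 0.0056 and 0.19 in pretumor 3 and 5, and among tumor arrays it ran from 0.15 to 0.42. This sign of RNA quality thus differed within the groups and between pretumor and GCP samples, and its part in the differences below was not tested. GCP 1 and GCP 2 both exceeded GCP 3 and GCP 4 in 11 of the 28 members (39.3%) and lay below both in 5 (17.9%), against 29.6% and 33.7% of the 2996 genes above the low band. Calls against GCP are therefore also given with each pair averaged to 1 value.

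Markers of several cell types were measured beside the members. Zic1, a transcription factor of the granule lineage, stood at 12.74 ± 0.11, 12.59 ± 0.16 and 12.64 ± 0.21 in GCP, pretumor and tumor samples. Of the same list Pax6 fell 3.35-fold in pretumor and 4.70-fold in tumor samples against GCP (log2 differences -1.75 and -2.23), and Neurod1 fell by 1.37 and by 1.25 on the log2 scale. These were the 2 precursor markers called. Mycn was higher by 0.75 in pretumor and 0.15 in tumor samples, uncalled (limma adjusted p = 0.476 and 0.985). Ccnd1 was higher by 0.06 and 0.78, uncalled (limma adjusted p = 0.995 and 0.146). Zic2 and Ccnd2 were lower in both, uncalled. Atoh1, the defining factor of precursors, lay in the low band on every array (1.95 ± 0.10, 1.90 ± 0.20 and 2.01 ± 0.17), as did the hedgehog target Gli1, so these defining markers could not be used to check the label. The summed linear intensity of 10 measured precursor markers ran from 15652 to 19142 in GCP, 9266 to 12942 in pretumor and 10059 to 14520 in tumor samples. That of 8 astrocyte and Bergmann glia markers ran from 9169 to 12609, 909 to 1556 and 436 to 1775, and that of 11 microglia and macrophage markers from 146 to 375, 804 to 1354 and 628 to 1887, with Cx3cr1, Aif1, C1qa, C1qc, Tyrobp and Itgam below 16 on all arrays. In the astrocyte and Bergmann glia sum Fabp7 was by far the brightest gene, at 13.24 ± 0.22, 9.78 ± 0.40 and 9.40 ± 0.85. In pretumor against GCP samples Fabp7 was the 1 gene of that list called lower. Aldoc, with a mean in the low band, was the 1 called higher (log2 difference 1.23). In tumor against GCP samples 4 were called lower and 0 higher. In the microglia and macrophage sum Ctss and Lyz2 were the brightest genes and the 2 called, both higher in pretumor and in tumor samples. Ctss stood at 7.40 ± 0.75, 9.59 ± 0.26 and 9.13 ± 0.83, and Lyz2 at 4.48 ± 0.93, 7.25 ± 0.51 and 8.46 ± 0.62. Of that list C1qb differed from GCP by 1.03 and 0.82 and Csf1r by -0.25 and 0.02, all uncalled. Of the oligodendrocyte list, 8 measured, the sums ran from 135 to 241, 245 to 723 and 77.7 to 159, with Mag, Mobp, Cnp and Ugt8a below 16 on all arrays. For 8 endothelial markers they ran from 98.4 to 139, 54.9 to 77.7 and 38.4 to 54.5, with Cdh5, Pecam1, Tek, Kdr and Flt1 below 16 on all arrays. The sums of 3 red blood cell genes ran from 1919 to 4371, 743 to 3414 and 12.9 to 387, and those of 7 meninges and connective tissue markers from 453 to 1015, 493 to 704 and 49.4 to 431. The similar GCP and pretumor sums of the latter hold opposite changes. Ptgds was the 1 marker called higher in pretumor against GCP samples (log2 difference 3.39). Col3a1 (-2.64) and Col1a2 (-0.78), with means in the low band, were the 2 called lower. Dcn (-2.40) and Lum (-2.14) also fell, uncalled. For 6 Purkinje cell and interneuron markers the sums ran from 74.4 to 163, 29.4 to 81.0 and 24.2 to 50.4, with Pcp2, Gad2 and Slc32a1 below 16 on all arrays. For 5 markers of postmitotic granule neurons they ran from 43.5 to 66.1, 33.9 to 42.4 and 28.2 to 37.1, with Gabra6, Cbln1 and Grin2c below 16 on all arrays. Of these 2 lists 0 and 1 markers had a mean above the low band. The sums of the cell type lists move with the groups, and their part in the differences below was not tested.

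Few members changed between the 3 stages. Between pretumor and GCP samples 3 members fell and 0 rose, between tumor and GCP samples 0 fell and 1 rose, and between tumor and pretumor samples 0 were called in either direction. The members that fell were Ccnb2, Cdc25c and Cdk1, which all act at the entry into mitosis. The member that rose was Smc2, a subunit of condensin. The 3 falls were 9.09% of the 33 members, against 3.25% of all genes called lower in that contrast, and 10.7% of the 28 above the low band, against 4.57%. For rises in pretumor samples the shares of genes called were 1.99% and 3.27%. In tumor against GCP samples 1.7% of all genes and 3.6% of those above the low band were called higher, and 3.93% and 5.84% lower, so the single rise, 3.57% of the 28, lies at the background. In tumor against pretumor samples 0.133% of all genes and 0.267% of those above the low band were called higher, and 0.957% and 1.37% lower. At an unadjusted limma p under 0.05, 3 of the 28 members were higher and 0 lower in that contrast, against 5.97% and 8.01% of genes above the low band. By the same measure 1 was higher and 5 lower in pretumor against GCP samples, against 12.4% and 14.2%, and 1 was higher and 3 lower in tumor against GCP samples, against 12.4% and 16.2%.

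**Figure D1:**
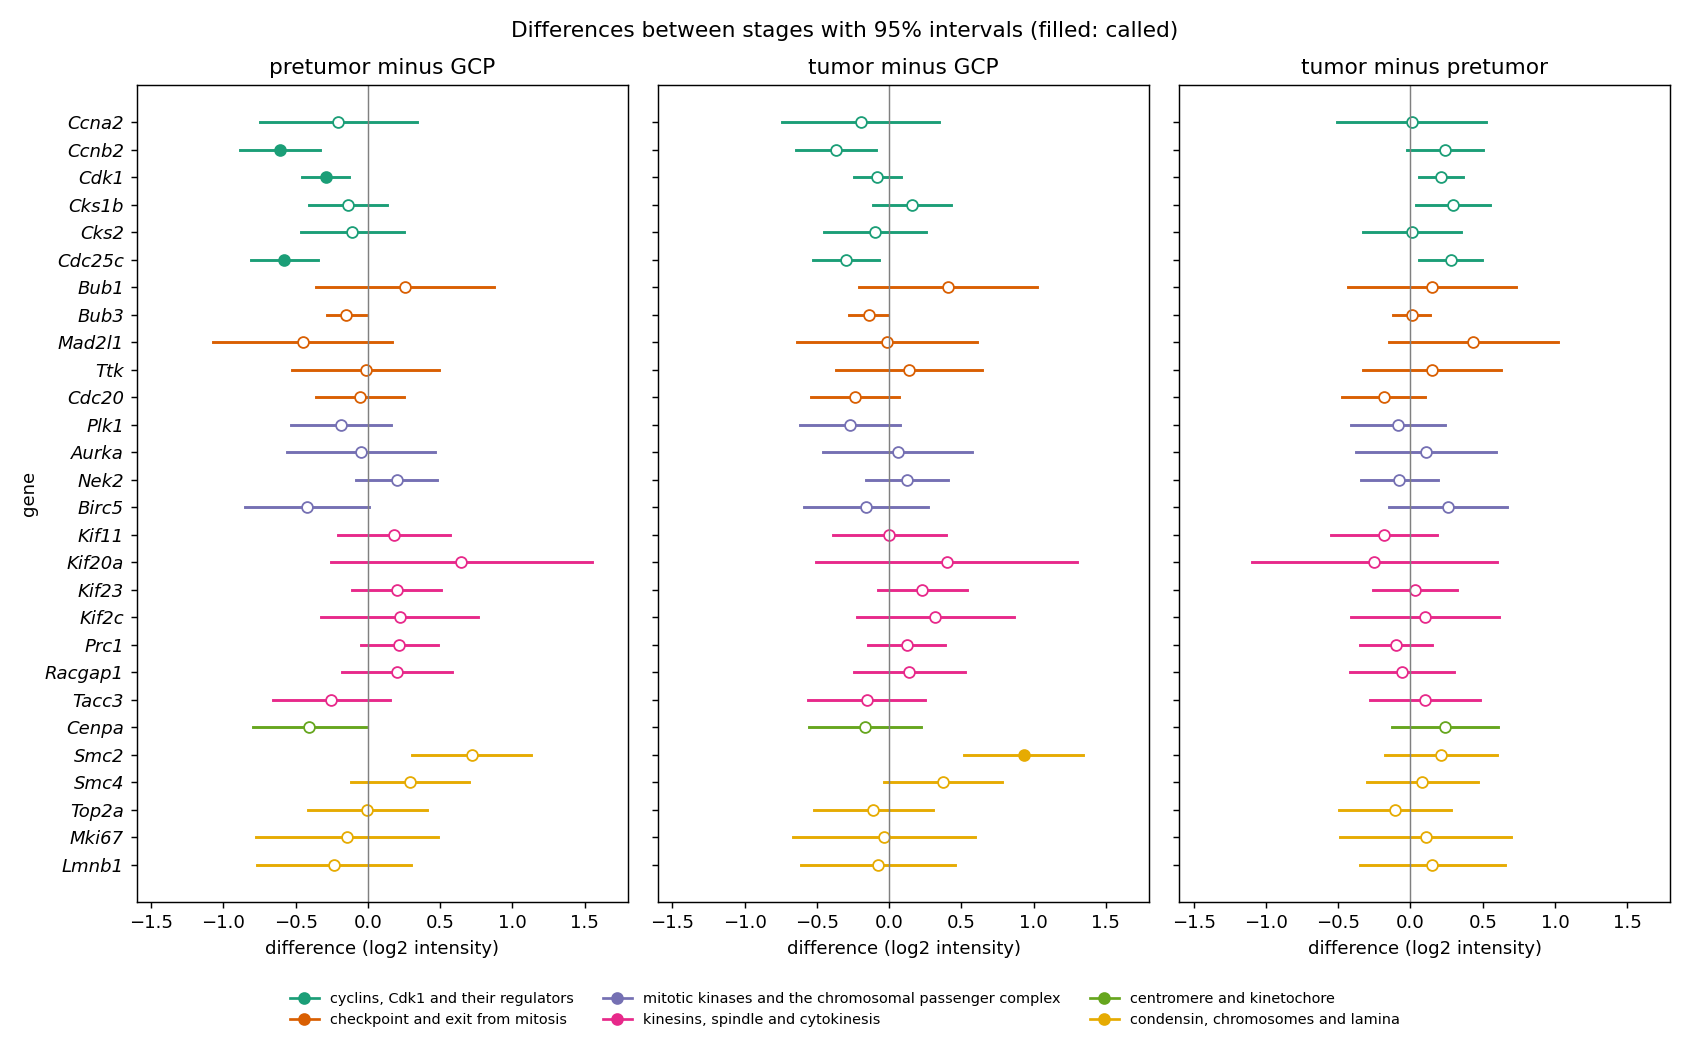
Differences in log2 intensity (horizontal axes) for the 28 members above the low band (rows, coloured by role), with 1 panel for each pair of stages. Points are fitted differences, lines are 95% intervals, and filled points passed the test: Ccnb2, Cdk1 and Cdc25c in the first panel and Smc2 in the second.

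The differences were small and, with each array counted as a separate sample, mostly bounded within a 2-fold change. No intervals are given with the GCP pairs averaged. The median over the 28 members was -0.08 in pretumor minus GCP, -0.03 in tumor minus GCP and 0.10 in tumor minus pretumor, against -0.02, -0.01 and 0.02 over the 2996 genes above the low band. In tumor minus GCP its sign turned without GCP 4 (0.01), tumor 3 (0.10) or tumor 5 (0.04) and with replicate numbers as a block (0.04). In tumor minus pretumor it turned without tumor 1 (-0.04). The 95% interval of the difference lay inside 1 log2 unit either way, a 2-fold change, in 25 of 28 members for pretumor minus GCP and for tumor minus GCP and in 26 for tumor minus pretumor. The corresponding shares of all genes above the low band were 80.4%, 79.2% and 87.9%. Mad2l1, Kif20a and Smc2 were the members with wider bounds in the first contrast, Bub1, Kif20a and Smc2 in the second, and Mad2l1 and Kif20a in the third. For Kif20a this holds for the probe set used, and the intervals of its other probe set lay inside 1 log2 unit in every contrast. The groups did not overlap for 4 of the 28 members in pretumor against GCP, for 2 in tumor against GCP and for 0 in tumor against pretumor, where 18.5%, 14.5% and 3.54% of genes above the low band had groups apart.

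Cyclins, Cdk1 and their regulators were the class with calls against GCP in pretumor samples: 3 of 7 measured genes fell and 0 rose, and 1 of the 7, Foxm1, lay in the low band. The falls were 42.9% of the class, against 3.25% of all genes, and 0 were called with the GCP pairs averaged. Ccnb2, a B-type cyclin that activates Cdk1, measured 10.09, 9.90, 9.92 and 10.08 in GCP 1 to 4. It measured 9.57, 9.22, 9.75, 9.09 and 9.32 in pretumor 1 to 5 and 9.59, 9.80, 9.44, 9.52 and 9.81 in tumor 1 to 5. Every GCP array was above every other array. The group levels were 10.00 ± 0.10, 9.39 ± 0.27 and 9.63 ± 0.17, and the fall in pretumor samples was 1.53-fold (log2 difference -0.61, SE 0.13, limma adjusted p = 0.0189). In tumor against GCP samples the difference was -0.37 (95% interval -0.65 to -0.09, adjusted p = 0.153). The call in pretumor samples ended without GCP 1, GCP 4 or pretumor 2 (adjusted p = 0.0567, 0.064 and 0.0507), with the GCP pairs averaged (0.149) and with replicate numbers as a block (0.0743).

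Cdc25c, a phosphatase that removes the inhibitory phosphates from Cdk1, measured 7.71, 7.42, 7.41 and 7.56 in GCP samples. It measured 7.17, 6.96, 6.92, 6.92 and 6.75 in pretumor and 7.04, 7.49, 7.05, 7.31 and 7.22 in tumor samples. Its pretumor arrays all lay below its GCP arrays, while the tumor arrays overlapped both. The fall in pretumor samples was 1.49-fold (log2 difference -0.58, SE 0.11, adjusted p = 0.00935), and it passed the test without any 1 array (adjusted p at most 0.0326). With the GCP pairs averaged the adjusted p was 0.0718. The second Cdc25c probe set stood at 5.13 ± 0.32, 4.68 ± 0.25 and 4.71 ± 0.49 and was not called (-0.44, adjusted p = 0.433). The probe set used carries the suffix of sets whose probes may match more than 1 transcript.

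Cdk1, the kinase that drives entry into mitosis, measured 5.30, 5.34, 5.29 and 5.53 in GCP samples. It measured 5.07, 5.24, 5.00, 5.10 and 4.96 in pretumor and 5.19, 5.39, 5.17, 5.25 and 5.44 in tumor samples. The pretumor arrays again lay below all GCP arrays, by a narrow margin between pretumor 2 and GCP 3. The fall was 1.22-fold (log2 difference -0.29, SE 0.07, adjusted p = 0.0473), the smallest of the 4 calls among the members. It ended in 18 of 25 alternatives: without any 1 of 10 arrays, those being GCP 1 to 4, pretumor 1, 3, 4 and 5 and tumor 1 and 4 (adjusted p up to 0.138), with the GCP pairs averaged (0.208) and in 7 others.

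The other regulators of Cdk1 showed no call. Ccna2, the A-type cyclin of S and G2 phase, measured 10.50, 10.24, 9.37 and 9.60 in GCP samples, 9.36 to 10.03 with a median of 9.83 in pretumor and 9.40 to 10.16 with a median of 9.74 in tumor samples. Its GCP 1 and GCP 2 arrays exceeded all pretumor and tumor arrays, and its GCP 3 and GCP 4 arrays lay within their range. The differences were -0.21 (95% interval -0.75 to 0.34) and -0.20 (-0.74 to 0.35) against GCP. Cks2, a small Cdk-binding subunit and the brightest probe set of the class, stood at 10.95 ± 0.18, 10.84 ± 0.11 and 10.85 ± 0.37, with its lowest value, 10.35, in tumor 3 and its highest, 11.31, in tumor 2. Cks1b, its relative, stood at 6.95 ± 0.10, 6.81 ± 0.14 and 7.11 ± 0.27. Foxm1, a transcription factor of G2 genes, ranged from 3.40 to 4.97.

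All 7 regulators had a positive difference in tumor minus pretumor samples, as did 57.2% of all genes, and none was called. Those of Ccna2 and Cks2 were 0.01 each, and Foxm1 lay in the low band. Cdc25c differed by 0.28 (95% interval 0.06 to 0.50, adjusted p = 0.286), Cdk1 by 0.21 (0.06 to 0.36, adjusted p = 0.235), Cks1b by 0.30 (0.04 to 0.55, adjusted p = 0.351) and Ccnb2 by 0.24 (-0.02 to 0.50, adjusted p = 0.494). Cdc25c, Cdk1 and Cks1b were the 3 members above the low band with an unadjusted p under 0.05 in this contrast, and Ube2c, in the low band, was a further one. The pretumor arrays enter this contrast and the one against GCP, so the values are given side by side only.

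**Figure D2:**
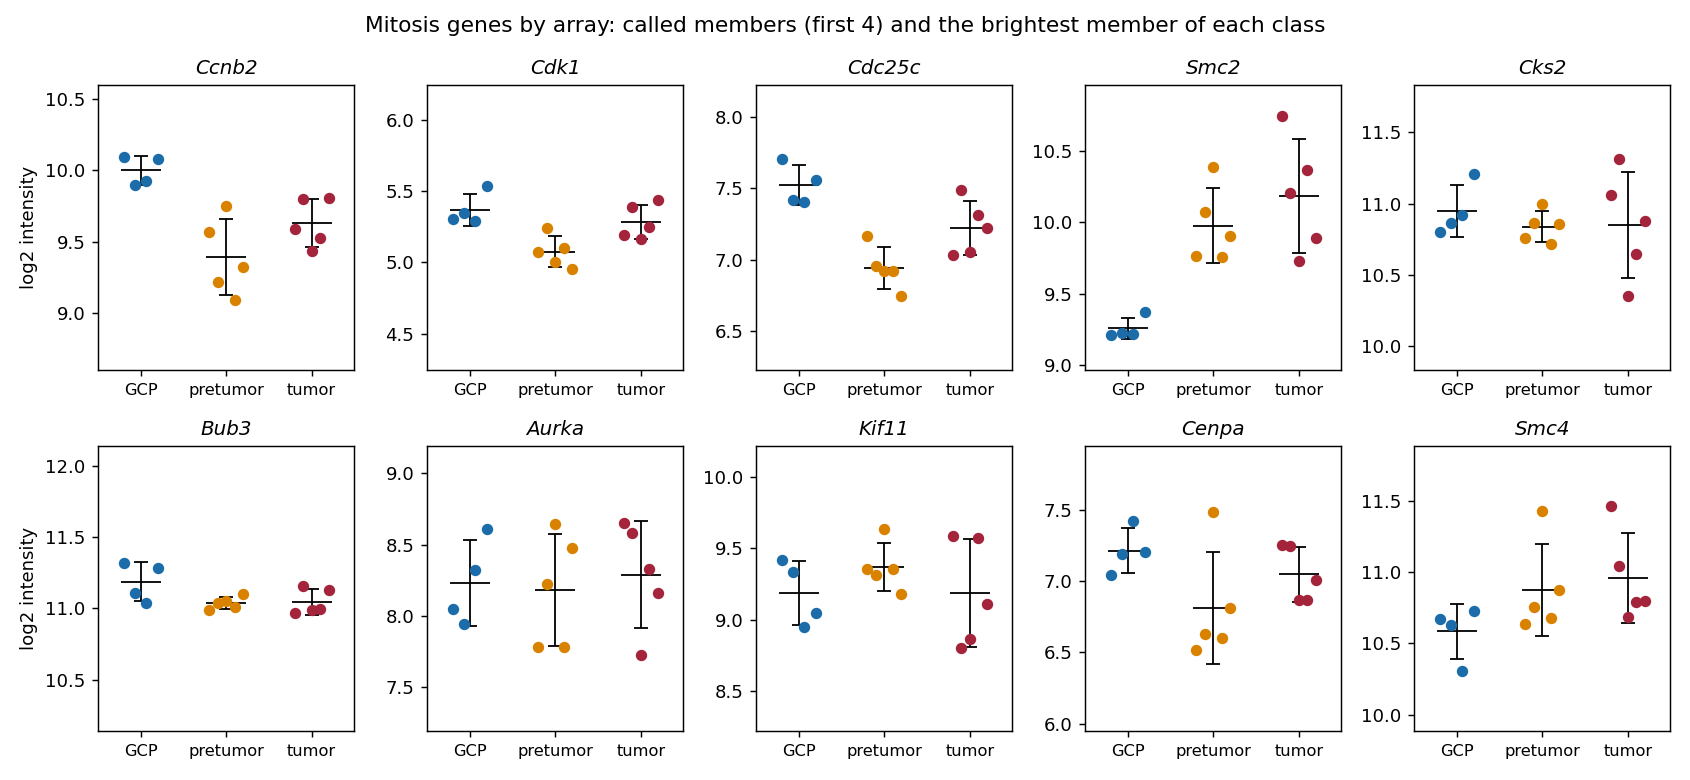
Log2 intensity (vertical axes, each spanning 2 units) of the 4 called members and of the member with the highest mean in each class, by group. Points are single arrays, and black marks show group mean and SD. The GCP arrays lie above all pretumor arrays for Ccnb2, Cdk1 and Cdc25c and below all pretumor and tumor arrays for Smc2.

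In the checkpoint class 0 of 6 measured genes were called in any contrast, and 5 of them lay above the low band. Bub3, a checkpoint protein that binds kinetochores and the brightest probe set of the class, measured 11.32, 11.11, 11.04 and 11.28 in GCP samples. It measured 10.99, 11.04, 11.05, 11.01 and 11.10 in pretumor and 10.96, 11.16, 10.99, 10.99 and 11.13 in tumor samples. The pretumor and tumor arrays overlapped the lower GCP arrays, and the difference of -0.15 in pretumor minus GCP had an interval of -0.28 to -0.02 (adjusted p = 0.25). Bub1, a checkpoint kinase, stood at 7.62 ± 0.41, 7.88 ± 0.09 and 8.03 ± 0.62. Its tumor arrays ran from 7.20 in tumor 3 to 8.94 in tumor 1, wider than the distance between any of the group means. Ttk, the kinase Mps1 that starts the checkpoint signal, stood at 8.31 ± 0.07, 8.30 ± 0.29 and 8.45 ± 0.52, again with tumor 3 lowest (7.61) and tumor 1 highest (8.96).

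Mad2l1, the checkpoint protein that inhibits Cdc20, measured 9.63, 9.69, 10.20 and 10.02 in GCP samples, 9.03 to 10.16 in pretumor and 9.25 to 10.68 in tumor samples. Its difference in pretumor minus GCP was -0.45 with an interval of -1.07 to 0.17 (adjusted p = 0.529), too wide to set a 2-fold limit. Cdc20, the activator of the anaphase-promoting complex, stood at 9.86 ± 0.16, 9.80 ± 0.15 and 9.62 ± 0.29. Ube2c, the ubiquitin-conjugating enzyme of that complex, lay between 2.95 and 3.60 on all arrays, inside the low band.

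Among mitotic kinases and the chromosomal passenger complex, 0 of 6 genes were called, 4 of them above the low band. Aurka, the Aurora kinase of the spindle poles, measured 8.05, 7.94, 8.32 and 8.61 in GCP samples. It measured 7.79, 8.22, 8.65, 7.78 and 8.48 in pretumor and 8.65, 8.59, 7.72, 8.33 and 8.16 in tumor samples. The groups overlapped over most of their ranges, and the differences were -0.05 (95% interval -0.56 to 0.46), 0.06 (-0.45 to 0.57) and 0.11 (-0.38 to 0.59). Birc5, or survivin, which targets the passenger complex to centromeres, stood at 7.99 ± 0.24, 7.57 ± 0.19 and 7.82 ± 0.42, a difference of -0.42 in pretumor minus GCP (-0.85 to 0.01, adjusted p = 0.339). Nek2, a centrosome kinase, stood at 7.74 ± 0.21, 7.94 ± 0.25 and 7.86 ± 0.12, and Plk1, the Polo kinase, at 4.56 ± 0.28, 4.37 ± 0.13 and 4.29 ± 0.30, close to the low band. Aurkb (2.09 to 2.29) and Incenp (2.41 to 2.84), the kinase and scaffold of the passenger complex, lay in the low band throughout.

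Kinesins and proteins of the spindle and of cytokinesis also had 0 calls among 7 measured genes, all above the low band, and 6 of the 7 differences in pretumor minus GCP were positive, against 46.7% of genes above the low band. The 6 (Kif11, Kif20a, Kif23, Kif2c, Prc1 and Racgap1) are all among the 11 members in which GCP 1 and GCP 2 exceeded GCP 3 and GCP 4. Kif11, the motor that pushes spindle poles apart, measured 9.42, 9.34, 8.95 and 9.05 in GCP samples. It measured 9.35, 9.31, 9.64, 9.36 and 9.18 in pretumor and 9.59, 8.80, 8.86, 9.58 and 9.11 in tumor samples. The GCP arrays fell in pairs and the tumor arrays spread around them, and the differences against GCP were 0.18 (95% interval -0.21 to 0.57) and 0.00 (-0.39 to 0.39). Kif2c, which takes microtubules apart at kinetochores, stood at 8.12 ± 0.42, 8.34 ± 0.19 and 8.44 ± 0.49. Prc1, which bundles the central spindle, stood at 7.29 ± 0.22, 7.50 ± 0.19 and 7.41 ± 0.16, and Racgap1, of the same structure, at 8.91 ± 0.36, 9.11 ± 0.14 and 9.05 ± 0.29.

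Kif23, the kinesin partner of Racgap1, stood at 4.37 ± 0.12, 4.57 ± 0.19 and 4.60 ± 0.29. Kif20a, a kinesin of cytokinesis, had the widest spread within groups of all members above the low band (pooled SD 0.64, against a median of 0.28 over the 28 members and 0.27 over genes above the low band). It ran from 5.04 to 6.38 in GCP, 5.55 to 7.23 in pretumor and 5.29 to 6.98 in tumor samples. Its difference of 0.65 in pretumor minus GCP had an interval of -0.25 to 1.55. Tacc3, which steadies spindle microtubules, was the exception to the positive differences, at 6.12 ± 0.31, 5.87 ± 0.31 and 5.96 ± 0.24.

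Of the centromere class only Cenpa, the histone H3 variant that marks centromeres, lay above the low band. It measured 7.04, 7.19, 7.42 and 7.20 in GCP samples. It measured 6.51, 6.63, 7.48, 6.60 and 6.81 in pretumor and 7.25, 7.24, 6.86, 6.87 and 7.01 in tumor samples. Of the pretumor arrays 4 lay below every GCP array and pretumor 3 lay above them all. The difference of -0.41 was not called (95% interval -0.80 to -0.02, adjusted p = 0.297), and without pretumor 3 it was -0.57 (adjusted p = 0.0177). Cenpe, a kinetochore motor, ran from 1.30 to 1.61.

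The single rise was that of 1 condensin gene. Smc2, the subunit shared by both condensin complexes, measured 9.21, 9.23, 9.22 and 9.37 in GCP samples. It measured 9.76, 10.07, 10.39, 9.76 and 9.91 in pretumor and 10.75, 10.21, 9.73, 10.36 and 9.89 in tumor samples. Every pretumor and tumor array exceeded every GCP array. The levels were 9.26 ± 0.08, 9.98 ± 0.26 and 10.19 ± 0.40, a rise of 1.91-fold in tumor against GCP samples (log2 difference 0.93, SE 0.19, limma adjusted p = 0.0146). That call held without any 1 array (adjusted p at most 0.0465) and ended with the GCP pairs averaged (0.148) and with the 2 groups fitted alone (0.0529). In pretumor against GCP samples the difference was 0.72 (95% interval 0.31 to 1.13, adjusted p = 0.0547) and was not called. It passed in 8 of 25 alternatives, among them the 2 groups fitted alone (0.0202), without tumor 1 (0.0215) and without tumor 3 (0.0319). It did not pass in the other 17, which include 12 of the 14 with a single array left out (adjusted p up to 0.319 over all alternatives). Smc4, its partner in the complex, measured 10.67, 10.63, 10.31 and 10.73 in GCP, 10.64, 10.75, 11.43, 10.68 and 10.88 in pretumor and 11.47, 11.05, 10.68, 10.79 and 10.80 in tumor samples. Its groups overlapped, and its differences of 0.29 (-0.12 to 0.70) and 0.37 (-0.04 to 0.78) against GCP were not called (adjusted p = 0.541 and 0.387). Of the 2 condensin genes measured outside the members, Ncaph and Ncaph2, both above the low band, 0 were called in any contrast. Both were lower in pretumor than in GCP samples, and 1 of the 2 was higher in tumor than in GCP samples.

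The chromosome and envelope genes of this class showed no call. Top2a, the topoisomerase that untangles sister chromatids, stood at 9.34 ± 0.17, 9.34 ± 0.31 and 9.23 ± 0.34. Mki67, which encodes the proliferation marker Ki-67, measured 10.37, 10.53, 10.40 and 10.73 in GCP samples. It measured 10.00, 10.44, 10.87, 10.28 and 10.22 in pretumor and 11.32, 10.87, 9.89, 10.47 and 9.80 in tumor samples. The tumor arrays spanned from below to above all GCP arrays, and the differences against GCP were -0.14 (95% interval -0.77 to 0.48) and -0.04 (-0.67 to 0.59). Lmnb1, a lamin of the nuclear envelope, stood at 9.69 ± 0.45, 9.46 ± 0.43 and 9.61 ± 0.22, with GCP 1 and GCP 2 (10.21 and 9.94) above all pretumor arrays and GCP 3 and GCP 4 (9.36 and 9.27) within their range.

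Arrays of the same group differed in the set as a whole. In tumor 3 all 28 members lay below their tumor mean, with a median deviation of -0.32 and single deviations from -0.84 to -0.06. By comparison 45.2% of genes above the low band were above their group mean on that array, with a median deviation of -0.03. Tumor 3 was the lowest tumor array for 19 of the 28 members, against 24.8% of genes. Tumor 1 was the highest for 13 of the 28, against 27.0% of genes, and 20 members (71.4%) exceeded their group mean there, against 56.4% of genes. Among pretumor samples the highest array was pretumor 3 for 16 of the 28 members, against 41.8% of genes. That array was also most often the highest over all genes above the low band, with 10.7% to 18.2% for the others. In pretumor 4 the members above their mean numbered 5 of 28 (17.9%), against 56.5% of genes. In GCP 3 the members above their mean numbered 5 of 28 (17.9%), against 47.0% of genes. The summed microglia and macrophage markers were highest in tumor 3 among tumor arrays, at 1887 against 628 to 1457, as were the meninges and connective tissue markers, at 431 against 49.4 to 227. Tumor 3 was also the highest tumor array for the oligodendrocyte (159 against 77.7 to 129), endothelial (54.5 against 38.4 to 48.0) and Purkinje cell and interneuron sums (50.4 against 24.2 to 28.01). Of the oligodendrocyte genes Cldn11 (6.22) was highest there, while Mog (2.48) and Mal (3.75) were not. Of the Purkinje cell and interneuron genes Pvalb (5.06) was highest there, while Gad1 (1.81) and Slc32a1 (1.88) were not. Of the microglia and macrophage genes Ctss (10.10), Lyz2 (9.36) and C1qb (5.80) were highest there, while Csf1r (3.73) was not. Of the meninges and connective tissue genes Dcn (7.84) and Lum (7.12) were highest there, while Ptgds (4.50) was not. Tumor 3 was the lowest for the sum of precursor markers, at 10059 against 10938 to 14520. Of these genes Ccnd2 (9.07) and Mycn (5.69) were lowest there. Zic1 (12.51), Neurod1 (11.63), Pax6 (8.24), Zic2 (5.71) and Ccnd1 (6.52) were each lower on another tumor array. In tumor 3 the astrocyte and Bergmann glia sum (664 against 436 to 1775) lay inside the range of the other tumor arrays. So did its red blood cell (21.9 against 12.9 to 387) and postmitotic granule neuron sums (36.9 against 28.2 to 37.1). The part of any of these in the low values of tumor 3 was not tested.

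**Figure D3:**
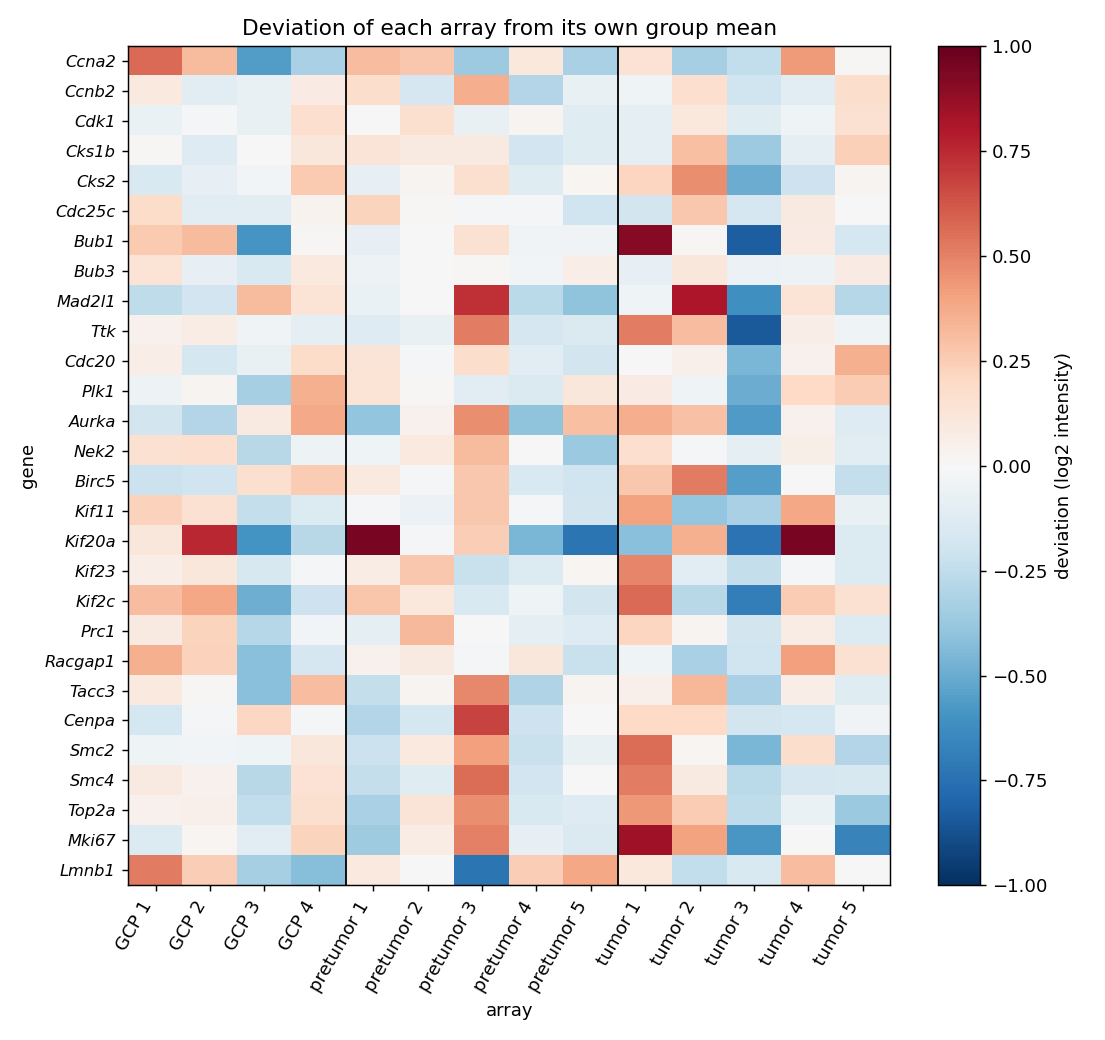
Deviation of each array (columns) from the mean of its own group in log2 intensity (colour), for the 28 members above the low band (rows). Red is above and blue below the group mean, and black lines part the groups. The tumor 3 column is blue in every row, and members such as Mki67, Ttk and Smc4 are high in pretumor 3 and tumor 1.

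Without tumor 3 the called members did not change in tumor against GCP samples, where Smc2 remained called, and none was called in tumor against pretumor samples. The median difference over the members was then 0.10 against GCP and 0.18 against pretumor samples.

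**Figure D4:**
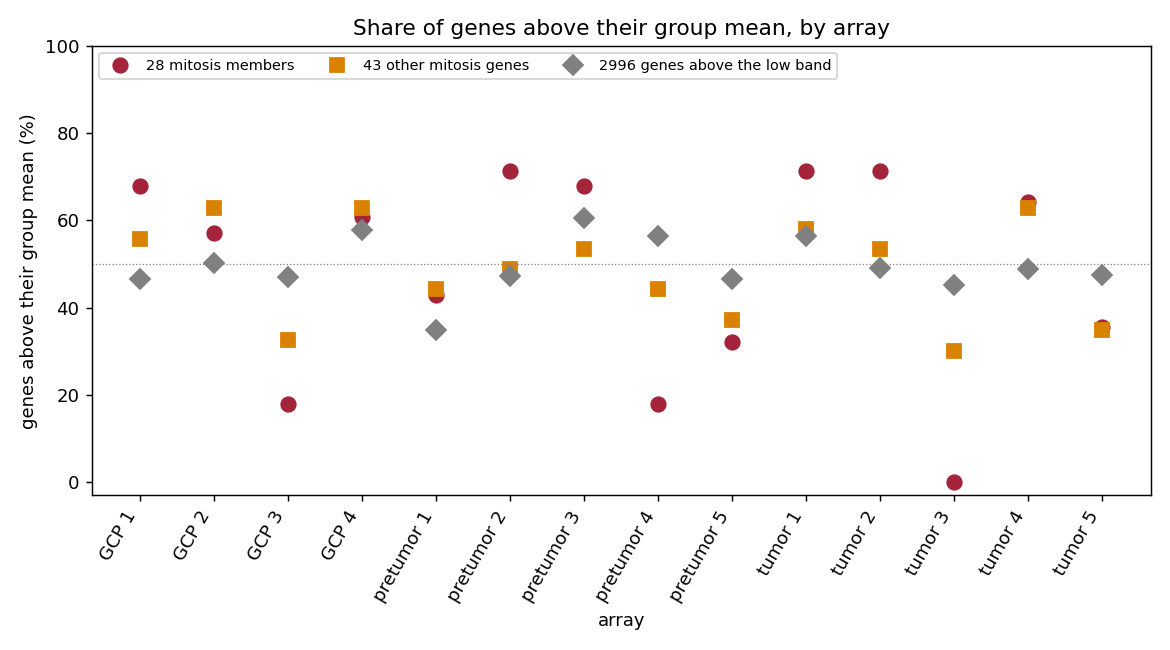
Percent of genes above their own group mean (vertical axis) on each array (horizontal axis), for the 28 members, for 43 other mitosis genes and for the 2996 genes above the low band. The members reach 0% on tumor 3 and 17.9% on GCP 3 and pretumor 4, while all genes stay between 34.9% and 60.5%.

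Other genes of mitosis were taken from a list of 100, of which 65 were on the array and 43 above the low band. Against GCP, 1 of the 65 rose and 4 fell in pretumor samples, 0 rose and 5 fell in tumor samples, and between tumor and pretumor samples 0 rose and 1 fell. The shares of genes called among the 43, 2.33% higher and 9.30% lower in pretumor and 11.6% lower in tumor samples, compare with 3.27%, 4.57% and 5.84% of genes above the low band. In tumor 3, 30 of the 43 lay below their group mean. No gene of the anaphase-promoting complex, of cohesin or of the nuclear envelope among them was called in any contrast.

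Wee1, the kinase that holds Cdk1 inactive until mitosis, rose in pretumor samples by 2.55-fold, from 5.04 ± 0.12 to 6.39 ± 0.62 (limma adjusted p = 0.0135). It measured 4.96 to 5.20 in GCP and 5.41 to 7.09 in pretumor samples, without overlap, and stood at 5.82 ± 0.26 in tumor samples (log2 difference from GCP 0.78, adjusted p = 0.146). With the GCP pairs averaged its adjusted p was 0.135. Mnat1, a subunit of the kinase that activates Cdks, fell 1.94-fold in pretumor and 1.85-fold in tumor samples, from 6.21 ± 0.34 to 5.26 ± 0.14 and 5.33 ± 0.23 (adjusted p = 0.0044 and 0.00656). Both its calls held in all 25 alternatives.

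Zwint, which links kinetochores to the checkpoint and is also expressed in neurons, fell 1.67-fold in pretumor and 1.81-fold in tumor samples, from 10.69 ± 0.13 to 9.95 ± 0.08 and 9.83 ± 0.32 (adjusted p = 0.00935 and 0.00349). Its call in tumor samples held in all alternatives, and that in pretumor samples ended with the GCP pairs averaged (0.0921) and with the mean of its 2 probe sets (0.118). Stmn1, a microtubule-destabilising protein of dividing cells and young neurons, stood at 13.63 ± 0.03, 13.48 ± 0.03 and 13.26 ± 0.08. Its groups did not overlap in any contrast, and it fell by 0.15 in pretumor and by 0.37 in tumor samples against GCP (adjusted p = 0.0374 and 0.000102) and by 0.22 in tumor against pretumor samples (adjusted p = 0.0075). The first of these ended in 15 of 25 alternatives. It ended without any 1 of 8 arrays, GCP 1 to 4 and pretumor 1, 2, 4 and 5, and with the GCP pairs averaged (adjusted p = 0.248). It also ended with the mean of its 2 probe sets (0.369), dim probe sets filtered out (0.303) and the trended prior (0.206). The block (0.0945), a floor at 16 (0.0734) and leaving out tumor 1 and tumor 3 together (0.0528) ended it too. The fall in tumor against pretumor samples ended with the mean of its 2 probe sets (-0.10, adjusted p = 0.16), with dim probe sets filtered out (0.203), with the trended prior (0.0712) and with the compared groups alone (0.0531).

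The tubulin genes Tubb2a and Tubb5, building blocks of spindle and neuronal microtubules alike, fell in tumor samples. Tubb2a went from 12.46 ± 0.24 to 11.57 ± 0.32 and 11.53 ± 0.35 (1.85-fold and 1.90-fold, adjusted p = 0.0278 and 0.022), and Tubb5 from 13.95 ± 0.12 to 13.63 ± 0.16 in tumor samples (1.24-fold, adjusted p = 0.042). The Tubb5 call ended in 20 of 25 alternatives, 11 of them single arrays left out (any 1 array but GCP 2, tumor 3 and tumor 4), with adjusted p from 0.0164 to 0.929. Those of Tubb2a ended in 8 and 7 of 25. The arrays whose removal ended them were GCP 2, 3 and 4 and pretumor 1, 2 and 5 in pretumor samples and GCP 3 and 4 and tumor 1 and 4 in tumor samples. Both probe sets carry the suffix of sets that may match related genes, and tubulin genes are closely alike, so which family member changed is uncertain.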

How the data were processed

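The deposited table holds 1 linear intensity per probe set and array for 12488 probe sets; the labels do not say by which method the authors made them. From it, 66 control probe sets were set aside, values were floored at their 10th percentile (2.46) and taken to log2, with no further normalisation because array medians differed by less than 0.2 log2 units. A linear model of 3 group means was fitted over all 14 arrays with limma 3.58.1 in R 4.3.3 (11 residual and 0.83 prior degrees of freedom), with two-sided p-values adjusted by the Benjamini-Hochberg method over 12422 probe sets. Intervals are 95% and unadjusted. Symbols came from the platform annotation: 10833 probe sets had 1, 396 several and 1193 none. Named in full are called members, the brightest member of each class and called genes of the second list. The low-band limit, members, lists and motifs were chosen with earlier results of these data known. The code was tested on simulated data. Alternatives covered the floor, a pseudocount of 16, quantile normalisation, a filter, the groups fitted, the block, arrays left out, averaged GCP pairs, the variance prior and the probe sets averaged.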

Additional observations from a re-analysis of the deposited data

Results flagged for a closer look

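Within-group values far from the rest were sought among 84 combinations of a member above the low band and a group, and 3 stood out. Chance marks about 1 in 20. Ttk measured 8.81 in pretumor 3, against 8.13 to 8.22 in the other pretumor samples. Prc1 measured 7.83 in pretumor 2, against 7.38 to 7.50 in the others. Smc2 measured 9.37 in GCP 4, against 9.21 to 9.23 in the other GCP samples, where the spread was very small.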

How the results depend on the processing

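Over 25 alternatives 0 calls changed direction. In pretumor against GCP samples the members called lower numbered 3, and 1 with replicate numbers as a block, 0 with the GCP pairs averaged and 1 to 3 without single arrays. The members called higher numbered 0, and 1, Smc2, with quantile normalisation, with dim probe sets filtered out, with the trended prior, with the compared groups alone, with probe sets averaged and without tumor 1 and tumor 3 together (chosen after seeing the data), and 0 to 1 without single arrays. In tumor against GCP samples the members called higher numbered 1, and 0 with the replicate block (Smc2 adjusted p = 0.0608), with the GCP pairs averaged and with the compared groups alone. Same-numbered arrays of different groups had correlations of deviations from -0.32 to 0.56, over 0.1 in 5 of 13 pairs, so the numbers were not taken to pair samples. The Cdk1 call, lost in 18 of 25, ended among others with a floor at 16 (adjusted p = 0.108), quantile normalisation (0.0741), the filter (0.0861), the block (0.0765), the trended prior (0.118), the compared groups alone (0.0573) and without pretumor 3 and tumor 2 together (0.0882), and that of Cdc25c with its 2 probe sets averaged (0.0842). Of 80 uncalled differences of members above the low band 24 changed sign in at least 1 alternative, to at most 0.20 in size. Over all probe sets the calls in the 3 contrasts numbered 541, 571 and 124, against 168, 198 and 69 with the GCP pairs averaged, 194, 232 and 32 with the floor at 16, 689, 335 and 50 with the compared groups alone, 383, 436 and 76 with the block and 331, 338 and 92 without GCP 4. Genes in the low band could not be compared.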
